A study of Mus musculus with 8 samples.

Results

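Autophagy genes encode the machinery by which a cell encloses its own cytoplasm or organelles in a double membrane and delivers them to the lysosome for breakdown. The set described here holds 10 of them, chosen by name: Ulk1, Becn1, Atg5, Atg7, Map1lc3a, Map1lc3b, Gabarapl1, Sqstm1, Bnip3 and Lamp2. They are 10 of the 19987 genes that could be named on the array, read by 14 of its 39429 probes, and all 10 were among the 21434 genes and unnamed features tested. Expression was measured in 8 hearts of male C57BL6 mice, 4 from double-transgenic (dtg) and 4 from control animals. The dtg genotype was merCremer/+ IGFloxP/IGFloxP, that is, a tamoxifen-activated Cre recombinase together with floxed alleles of Igf1r, the receptor for insulin-like growth factor 1 (IGF1). Control animals also carried Cre but no floxed Igf1r. Per the labels, mice of both groups were given 500 µg of 4OH-Tamoxifen on 10 days in a row at 8 months of age, a treatment meant to delete exon 3 of the receptor gene, and the hearts were taken 6 weeks later. The labels do not name the promoter that drives merCremer, nor whether the 8 samples came from 8 animals. The p-values therefore cover no more than the variation among these samples, part of which may be technical.

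Autophagy starts when the ULK1 kinase complex is released from inhibition by mTORC1, a kinase that nutrients and insulin or IGF1 signalling keep active. A lipid kinase complex built around Beclin 1 then marks the membrane, and the ATG5 and ATG7 conjugation systems attach proteins of the ATG8 family (LC3 and GABARAP) to it. Receptors such as p62 and BNIP3 tie cargo to these proteins, and the finished vesicle fuses with the lysosome. In muscle, FoxO transcription factors, which Akt holds out of the nucleus downstream of the IGF1 receptor, are known to drive transcription of several of these genes, Map1lc3b, Gabarapl1 and Bnip3 among them. Much of autophagy is controlled at the protein level, which an mRNA array does not see.

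Each heart was on its own 1-colour array, and the arrays lay on 2 slides with 2 dtg and 2 control hearts each. Between 59.1% and 71.5% of probes were well above background, and no spot was saturated. Markers of heart muscle cells were all detected (8 of 8), with summed signals of 2643 to 2982 times the 75th percentile in dtg hearts and 2716 to 2954 times in control hearts. The summed signal of 4 atrial markers varied in both groups, from 65.1 to 489 in dtg and from 55.2 to 628 in control hearts. All 5 erythroid markers had a higher mean in dtg hearts, and all 4 atrial, 4 endothelial and 4 smooth muscle markers a lower one. In the other lists 4 of 8 heart muscle, 1 of 5 fibroblast, 2 of 5 fat, 2 of 6 leukocyte, 1 of 2 skeletal muscle and 3 of 5 clock markers were higher. Over all features 57.4% were higher. The 4 atrial markers differed, dtg minus control, by 1.36 to 2.145 log2 within slide 1 and by -4.10 to -2.61 within slide 2. Acta2, of smooth muscle, was the only marker without overlap of the groups, against 0.546% of all features. The summed signal of 5 clock genes was 22.3 to 42.3 in dtg and 7.58 to 31.2 in control hearts. Limma called none of the markers, and their part in the differences below was not tested. The number of arrays limits the precision. In whole hearts, fewer cells of a type and less RNA per cell cannot be told apart. Igf1r itself had a log2 signal of -0.093 ± 0.33 in dtg and 0.34 ± 0.40 in control hearts (SD, n = 4 each), with a log2 difference of -0.43 (SE 0.24, limma adjusted p = 1). Igf1r is read by 1 probe, and whether it lies in exon 3 could not be read from the files, so the value is no check of the genotype.

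None of the 10 autophagy genes differed between dtg and control hearts by limma's test, and the differences were small. Each value below is a log2 signal minus the 75th percentile of its array, and each difference is dtg minus control on that scale. Of the 10 genes, 5 had a higher and 5 a lower mean in dtg hearts, where 57.4% of all features were higher, with a median difference of -0.0081, where the median over all 21434 features was 0.021. That split followed the scaling: with arrays centred on their medians 0 of the 10 were higher and 10 lower, with quantile normalization 3 and 7, and with a normexp background correction 9 and 1, with medians of -0.093, -0.028 and 0.21 over the 10 and of -0.065, -0.012 and -0.067 over all features. Differences ran from -0.13 for Becn1 to 0.052 for Bnip3. With normexp they ran from -0.11 to 0.33, again for Becn1 and Bnip3, with standard errors of 0.18 to 0.50. At an adjusted p under 0.05, limma called 0 of the 10 genes and 0 of the 21434 features (0%). At an unadjusted p under 0.05 the counts were 0 of 10 and 163 of 21434 (0.76%), and the smallest unadjusted p among the 10 was 0.225. In none of the 10 did the 4 dtg values lie wholly outside the 4 control values, against 0.546% of all features. The adjusted p was 1 for each of the 10 (limma), and it is not repeated below.

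The limits that the data set on a difference were narrower than for most features. The standard error lay between 0.10 and 0.22, and for 9 of the 10 it was below the median of all features, 0.178. It was also below that median for 46 of 56 further autophagy genes and for 8 of 8 heart muscle markers. Among features well above background on all 8 arrays, as all 10 were, the median was 0.159. For 9 of the 10 the 95% interval of the difference stayed within 0.5 log2 on either side of 0, a count that was 0 of 10 with normexp, 0 of 10 with median scaling, 6 of 10 within slide 1 and 0 of 10 within slide 2. Sqstm1 was the exception, with an interval from -0.57 to 0.45, a ratio of dtg to control between 0.675 and 1.36. The interval also stayed within 0.5 log2 for 46 of the 56 further genes and 7 of 8 heart muscle markers. The share over all features was not computed. A missed threshold does not show that the levels were equal, and smaller differences than these intervals could not be resolved with 4 hearts per group.

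**Figure D1:**
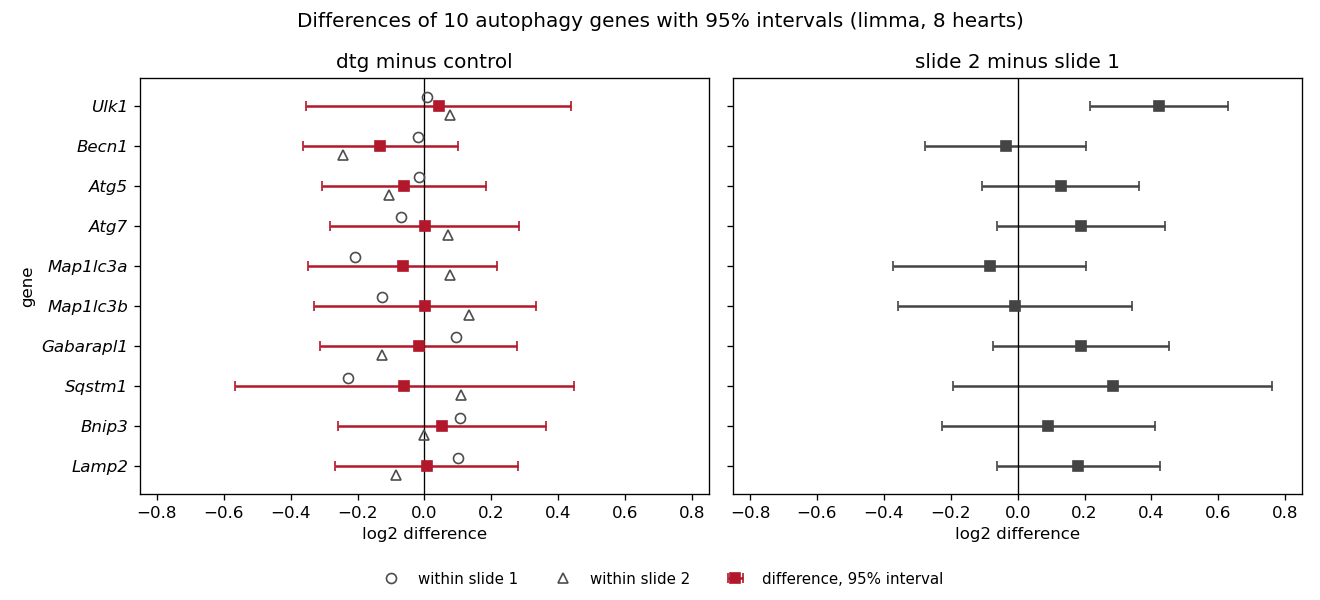
Log2 differences of the 10 autophagy genes, with dtg minus control on the left and slide 2 minus slide 1 on the right; squares and bars are limma estimates with 95% intervals over 8 hearts, and open symbols on the left are the differences within each slide. All 10 intervals on the left include 0, whereas on the right that of Ulk1 runs from 0.21 to 0.63.

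Ulk1 encodes the kinase that starts the process. Its log2 signal was 3.55, 4.03, 3.96 and 3.53 in dtg hearts 1 to 4, against 3.50, 3.56, 3.91 and 3.93 in control hearts 1 to 4. Both groups thus held a pair of hearts near 3.5 and a pair near 3.9 or 4.0, and the groups overlapped, although dtg 2 and dtg 3 were the highest of all. The mean was 3.77 ± 0.26 in dtg and 3.73 ± 0.23 in control hearts (SD, n = 4 each), a difference of 0.043 (SE 0.17, 95% interval -0.35 to 0.44). Within slide 1 the difference was 0.0089 and within slide 2 it was 0.077.

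Becn1 encodes Beclin 1, the scaffold of the lipid kinase complex that marks the forming membrane. Its signal was 0.44, 0.33, 0.16 and 0.35 in dtg hearts, against 0.45, 0.37, 0.47 and 0.51 in control hearts. All 4 dtg hearts lay below control 1, but dtg 1 stood above control 2, so the groups overlapped. The means were 0.32 ± 0.12 in dtg and 0.45 ± 0.058 in control hearts (SD, n = 4 each). This was the member with the largest difference of the 10, at -0.13 (SE 0.10, 95% interval -0.36 to 0.10), which corresponds to a dtg level 0.913 times that of controls. Most of it came from slide 2, where the difference was -0.24, while within slide 1 it was -0.019. Dtg 3, on slide 2, held the lowest value.

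**Figure D2:**
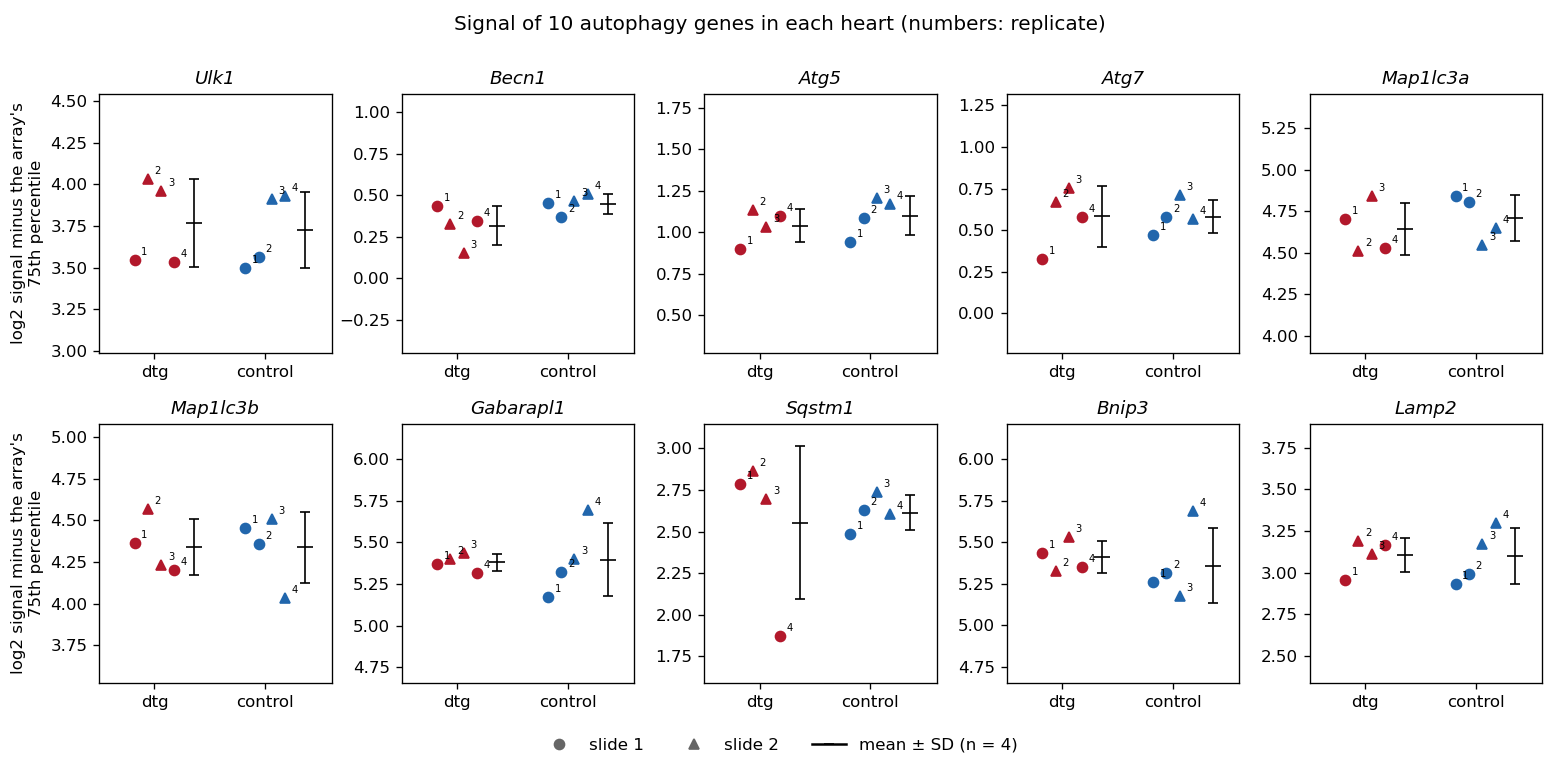
Log2 signal minus the 75th percentile of the array for each of the 10 genes, 1 point per heart with its replicate number, dtg left of control; circles are slide 1, triangles slide 2, and bars are the mean ± SD of 4 hearts. Every panel spans the same range of the log2 scale, and the groups overlap in all 10 panels, with dtg 4 far below the other hearts for Sqstm1.

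Atg5 encodes the protein that, joined to ATG12, helps to attach LC3 to the membrane. Its signal was 0.90, 1.13, 1.03 and 1.10 in dtg hearts, against 0.94, 1.09, 1.21 and 1.17 in control hearts. The lowest value of each group was on slide 1 in replicate 1, and the ranges overlapped over most of their length. With means of 1.04 ± 0.10 in dtg and 1.10 ± 0.12 in control hearts (SD, n = 4 each), the difference was -0.060 (SE 0.11, 95% interval -0.31 to 0.18), and -0.015 and -0.11 within slides 1 and 2.

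Atg7 encodes the enzyme that activates both ubiquitin-like systems of autophagy. With the brighter of its 2 probes the signal was 0.33, 0.67, 0.75 and 0.58 in dtg hearts, against 0.47, 0.58, 0.71 and 0.57 in control hearts. Dtg hearts held both the lowest and the highest value. The group means were nearly equal, 0.58 ± 0.18 in dtg and 0.58 ± 0.10 in control hearts (SD, n = 4 each), with a difference of 0.00062 (SE 0.12, 95% interval -0.28 to 0.28), and of -0.070 and 0.072 within slides 1 and 2. The dimmer probe gave -2.28, -2.29, -2.34 and -3.23 in dtg hearts, against -2.36, -2.10, -2.10 and -2.25 in control hearts. There dtg 4 lay far below the other 7 hearts, whereas with the brighter probe it lay within their range. The dimmer probe differed by -0.33 (SE 0.22, limma), and by -0.099 without dtg 4, so that most of that value came from 1 heart.

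The stretches before the transcription starts of these genes were read for short motifs, since members of one pathway can share them. RefSeq promoter sequences of build GRCm38.p6 were matched for 8 of the 10 genes, all but Map1lc3a and Becn1. The start is that of 1 transcript per gene, and for Atg7, Ulk1 and Atg5 it lies inside the gene as annotated. The whole Atg7 window is therefore within the gene, as is the part of the Ulk1 and Atg5 windows next to the start. The 250 bases before each start were searched on both strands. The E-box CACGTG, the core of the CLEAR element that the lysosomal regulator TFEB binds, was present in 3 of 8 (Atg5, Atg7 and Bnip3) and in 6.02% of 32851 promoters of that length. The Atg7 match is in the window that lies wholly within the gene. The FoxO motif GTAAACA was in 0 of 8 and in 3.17% of all, the antioxidant motif TGACNNNGC in 0 of 8 and in 10.2% of all, and the hypoxia motif ACGTGC in 1 of 8 (Bnip3) and in 4.92% of all. The E-box and the hypoxia motif share 5 letters and overlap in Bnip3. A match is a run of letters and not a shown site, and a missing match says only that these letters are not in this window. The promoters of Atg5 and Bnip3 are shown because they hold the E-box close to the start, with the motif letters in capitals. Atg5 is at chr10:44268089-44268338 on the plus strand and Bnip3 at chr7:138909507-138909756 on the minus strand, each printed 5′ to 3′ along the gene.
Atg5: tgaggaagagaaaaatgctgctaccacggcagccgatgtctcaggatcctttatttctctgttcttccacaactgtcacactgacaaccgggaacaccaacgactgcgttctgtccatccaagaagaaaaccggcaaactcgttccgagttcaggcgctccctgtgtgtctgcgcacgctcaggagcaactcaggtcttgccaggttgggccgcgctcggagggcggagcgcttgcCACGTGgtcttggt
Bnip3: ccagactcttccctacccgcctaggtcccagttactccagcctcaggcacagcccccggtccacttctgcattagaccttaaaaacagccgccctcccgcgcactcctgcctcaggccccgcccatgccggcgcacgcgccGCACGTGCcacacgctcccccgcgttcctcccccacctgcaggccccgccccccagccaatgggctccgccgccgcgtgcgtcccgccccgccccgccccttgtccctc
The E-box begins 14 bases before the transcript start used for Atg5, which places it just inside the gene as annotated, and 108 bases before that used for Bnip3. Neither Atg5, at -0.060, nor Bnip3, at 0.052, differed between the groups.

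Of the ATG8 family, whose members are attached to the membrane and bind receptors there, 3 genes are in the set. Map1lc3a, which encodes LC3A, had a signal of 4.71, 4.51, 4.84 and 4.53 in dtg hearts, against 4.84, 4.81, 4.55 and 4.65 in control hearts. The highest values of both groups were equal to 2 decimals, in dtg 3 and control 1. The means were 4.65 ± 0.16 in dtg and 4.71 ± 0.14 in control hearts (SD, n = 4 each), with a difference of -0.065 (SE 0.12, 95% interval -0.35 to 0.22). It was -0.21 within slide 1 and 0.077 within slide 2, so the direction was not the same on both slides.

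Map1lc3b encodes LC3B, the protein most used to mark autophagic vesicles. Its signal was 4.36, 4.57, 4.23 and 4.20 in dtg hearts, against 4.46, 4.36, 4.51 and 4.03 in control hearts. Control 4 held the lowest and dtg 2 the highest value. The means were almost the same, 4.34 ± 0.17 in dtg and 4.34 ± 0.21 in control hearts (SD, n = 4 each), with a difference of 0.0028 (SE 0.14, 95% interval -0.33 to 0.33). Within slide 1 it was -0.13 and within slide 2 0.13. The array carries the Map1lc3b probe 10 times, which gives a measure of the technical error within an array. The SD of the 10 spots was 0.038 to 0.075 in each heart on the log2 scale, against an SD of 0.18 over the 8 hearts. In dtg 2 the 10 spots ran from 4.42 to 4.66 and in control 4 from 3.95 to 4.15. The spread of spots does not hold the error of labelling or between arrays.

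Gabarapl1, a GABARAP-type member and among the FoxO-driven genes, had a signal of 5.37, 5.40, 5.44 and 5.31 in dtg hearts, against 5.17, 5.32, 5.40 and 5.69 in control hearts. The 4 dtg hearts lay close together, inside the wider range of the controls. Means of 5.38 ± 0.052 in dtg and 5.40 ± 0.22 in control hearts (SD, n = 4 each) gave a difference of -0.017 (SE 0.13, 95% interval -0.31 to 0.28). Within slide 1 it was 0.094 and within slide 2 -0.13. The sign turned without control 4, the highest heart, at 0.082, and without dtg 4, at 0.0054.

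Among the receptors, Sqstm1 encodes p62, which binds ubiquitin-tagged cargo and is itself degraded with it. Its signal was 2.78, 2.86, 2.69 and 1.87 in dtg hearts, against 2.48, 2.63, 2.74 and 2.61 in control hearts. Dtg 1 and dtg 2 were the 2 highest of all hearts, while dtg 4 was the lowest and stood alone. The mean was 2.55 ± 0.46 in dtg and 2.61 ± 0.10 in control hearts (SD, n = 4 each), a difference of -0.061 (SE 0.22, 95% interval -0.57 to 0.45), with -0.23 within slide 1, which holds dtg 4, and 0.11 within slide 2. Without dtg 4 the difference was 0.17 (SE 0.11), of opposite sign and again not called by limma (adjusted p = 1). Sqstm1 is read by 1 probe with 1 spot per array, so no second probe bears on the low value. Dtg 4 lay at least 0.5 log2 below every other heart for 89 of the 21434 features (0.415%).

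Bnip3 encodes a receptor on mitochondria that marks them for autophagy. Its brightest probe gave 5.44, 5.32, 5.53 and 5.35 in dtg hearts, against 5.26, 5.31, 5.17 and 5.69 in control hearts. The 4 dtg values stood above 3 of the 4 control values, while control 4 was the highest of all. The means were 5.41 ± 0.095 in dtg and 5.36 ± 0.23 in control hearts (SD, n = 4 each), with a difference of 0.052 (SE 0.13, 95% interval -0.26 to 0.36). It was 0.11 within slide 1, -0.0028 within slide 2 and 0.16 without control 4. The other 2 Bnip3 probes differed by -0.034 (SE 0.12) and 0.093 (SE 0.12), so the 3 probes had no common direction. Control 4 was the highest heart with both brighter probes (5.69 and 4.97), and dtg 3 with the dimmest (-0.79).

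Lamp2 encodes a major protein of the lysosomal membrane that is needed for vesicles to fuse with lysosomes. Its brighter probe gave 2.96, 3.19, 3.11 and 3.16 in dtg hearts, against 2.93, 2.99, 3.17 and 3.30 in control hearts. The dtg values lay inside the wider range of the controls, with control 4 at its top and control 1 at its bottom. The difference between means of 3.11 ± 0.10 in dtg and 3.099 ± 0.17 in control hearts (SD, n = 4 each) was 0.0069 (SE 0.12, 95% interval -0.27 to 0.28), and 0.0998 and -0.086 within slides 1 and 2. The other Lamp2 probe, which the array lists under a different transcript of the gene, differed by 0.037 (SE 0.105, 95% interval -0.20 to 0.28). Neither probe differed between the groups by the test.

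Over the 8 hearts the highest value exceeded the lowest by between 1.24-fold for Atg5 and 1.99-fold for Sqstm1. The SD over the 8 hearts was below the median SD of all features, 0.25, for 9 of the 10 genes, with a median of 0.14 over the 10. Control 4 held the highest value of 4 genes (Gabarapl1, Becn1, Bnip3 and Lamp2) and the lowest of Map1lc3b. Dtg 2 held the highest value of 3 (Map1lc3b, Ulk1 and Sqstm1), and control 1 the lowest of 3 (Gabarapl1, Ulk1 and Lamp2). The deviation furthest from a gene's mean was that of Sqstm1 in dtg 4, at -0.71, and the next was -0.31 for Map1lc3b in control 4. Control 4 and dtg 3 and 4 correlated least with their closest array over all features, at r between 0.984 and 0.988 across genes (genes are not independent replicates), where every other heart had a partner at 0.994 or above. Without these 3 hearts and with slide as a block, limma called none of the 10 genes, and the differences ran from -0.13 for Atg7 to 0.19 for Sqstm1.

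**Figure D3:**
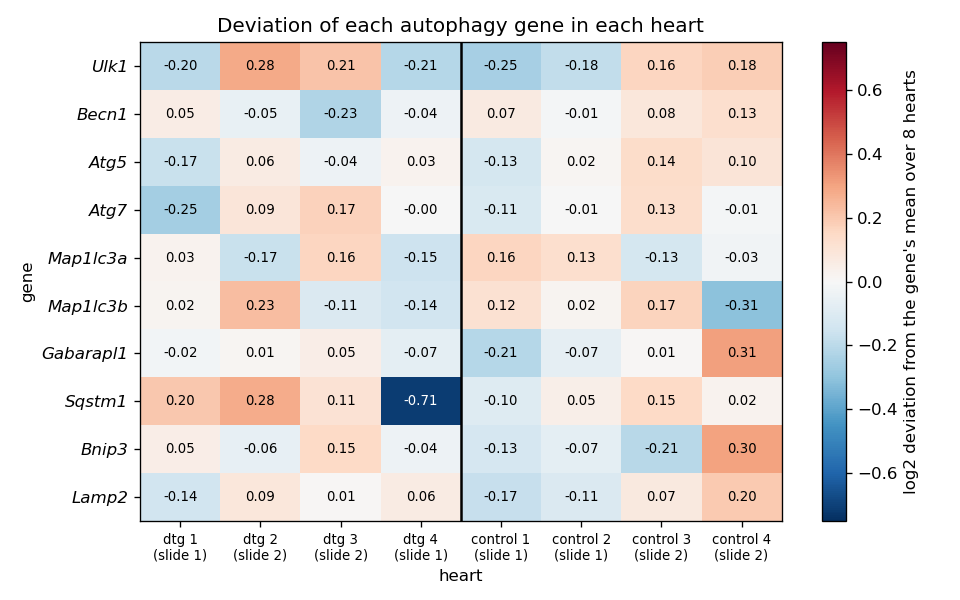
Log2 deviation of each gene from its own mean over the 8 hearts; rows are genes and columns are hearts, dtg left of the line and control right of it, with the slide named under each heart. Red is above and blue below the mean; the deviation furthest from 0 is Sqstm1 in dtg 4, at -0.71.

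The slide an array was on went with the signal of Ulk1 more closely than genotype did. Hearts on slide 2 had a Ulk1 signal between 3.91 and 4.03, and those on slide 1 between 3.50 and 3.56, with no overlap. The difference, slide 2 minus slide 1 with group as a further term, was 0.42 (SE 0.089, 95% interval 0.21 to 0.63), a 1.34-fold higher level on slide 2, and it was the only one of the 10 that limma called (adjusted p = 0.0241). Over all features 10.3% were called between the slides in either direction, but 0.271% as higher on slide 2. The call was kept without control 4, dtg 3 or dtg 4, and lost without any one of the other 5 hearts. Leaving out dtg 1 or dtg 2 put limma's adjusted p at 0.0881 and 0.0838, and leaving out control 1, 2 or 3 put it at 0.0938, 0.0813 and 0.0613, with a difference between 0.40 and 0.44 in each case. With quantile normalization the difference was 0.36 and the adjusted p 0.0715 (limma).

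Gabarapl1 also did not overlap between the slides, with 5.40 to 5.69 on slide 2 and 5.17 to 5.37 on slide 1, against 17.4% of all features in either direction and 3.2% higher on slide 2. Its difference of 0.19 (SE 0.11) was not called (limma adjusted p = 0.428). Of the 10 genes 7 had a higher mean on slide 2, against 45.8% of all features. With quantile normalization the count was also 7, but the median difference over all features was positive, so the 45.8% does not apply there. That median was 0.020, against 0.10 over the 10 genes. Without quantile normalization the median difference between slides was 0.16 over the 10, where that of all features was -0.026. Lamp2, Atg7 and Atg5 differed by 0.18, 0.19 and 0.13, none of them called by limma (adjusted p = 0.404, 0.399 and 0.575). For Lamp2 the other probe differed by -0.056. The summed signals of all 10 marker lists overlapped between the slides. Of the single markers, 4 were lower on slide 2 without overlap. Cd3e, made by T cells, differed by -1.46 (limma adjusted p = 0.00729), and the muscle genes Actc1 and Myl3 by -0.20 and -0.11 (limma adjusted p = 0.331 and 0.587). Lep, made by fat cells, was well above background on slide 1 and on no array of slide 2. The lists they come from were mixed: 4 of 5 fat, 1 of 6 leukocyte and 3 of 8 heart muscle markers had a higher mean on slide 2. The part of the 4 lower markers in the Ulk1 difference was not tested. Whatever else set the hearts of the 2 slides apart cannot be told apart from the slide.

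Further genes of the pathway did not differ between the groups by the test either. Of 59 further autophagy genes, 56 were tested, Atg4a and Atg9b had no probe above the filter, and no probe was matched to Epg5. Limma called 0 of the 56 between dtg and control hearts, as it called 0 of all 21434 features. At an unadjusted p under 0.05 the count was 0 of 56, against 0.76% of all features. The median difference of the 56 was -0.0036, against 0.021 over all features. In dtg hearts 27 of the 56 were higher and 29 lower, where 57.4% of all features were higher. That split is given for the 75th-percentile scaling only. By role, 3 of 4 genes of the initiation complex, 3 of 7 of the lipid kinase complex, 2 of 8 of the conjugation machinery, 5 of 9 of membrane supply and lipid transfer, 0 of 2 of the ATG8 family, 7 of 12 receptors and 7 of 14 genes of lysosome and fusion had a higher mean in dtg hearts.

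The gene with the smallest unadjusted p was Wdr45b, a lipid-binding WIPI protein, which had values of -0.75, 0.31, -0.045 and 0.17 in dtg hearts, against -0.78, -0.74, 0.0075 and -0.94 in control hearts. Wdr45b has 2 probes on the array, and only the one used in the fit is given here. With that probe the hearts fell near -0.8 or near 0 in both groups, 3 of 4 dtg hearts near 0 and 1 of 4 control hearts. The difference was 0.53 (SE 0.29, 95% interval -0.13 to 1.19, unadjusted p = 0.0989, limma). Wipi2, its relative in the same role, differed by -0.15 (SE 0.12). In the initiation complex, Ulk2, the closest relative of Ulk1, differed by -0.13 (SE 0.17) and Rb1cc1, the scaffold FIP200, by 0.16 (SE 0.23). The 2 remaining ATG8 genes varied little: Gabarap lay between 4.58 and 4.67 in dtg hearts and between 4.59 and 4.66 in control hearts, and Gabarapl2 between 3.54 and 3.77 in dtg hearts and between 3.65 and 3.78 in control hearts. Their differences were -0.0020 (SE 0.085) and -0.020 (SE 0.098).

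Pik3c3, the lipid kinase itself, differed by -0.068 (SE 0.13), and Atg14, the subunit that directs it to autophagy, by 0.069 (SE 0.12). The conjugation enzymes Atg3 and Atg4b differed by -0.074 (SE 0.11) and -0.0997 (SE 0.16). Bnip3l, the mitochondrial receptor most like Bnip3, lay between 3.09 and 3.15 in dtg hearts and between 2.82 and 3.15 in control hearts, a difference of 0.12 (SE 0.11). Optn, a receptor for ubiquitin-tagged cargo, differed by -0.16 (SE 0.13). Ctsl, a lysosomal protease, differed by -0.135 (SE 0.16), and Tfeb, the transcription factor of lysosomal genes, by 0.13 (SE 0.16). Limma called none of these at an adjusted p under 0.05. Between the slides limma called 0 of the 56, against 10.3% of all features in either direction and 0.271% as higher on slide 2. Of the 56, 44 had a higher mean on slide 2, against 45.8% of all features. As for the 10 genes, that share does not apply with quantile normalization. Atg13, a partner of Ulk1 in the initiation complex, was higher without overlap on slide 2, at 0.38 (limma adjusted p = 0.146), as was Ambra1 at 0.19 (limma adjusted p = 0.31). In all, 3 of the 56 did not overlap between the slides, against 17.4% of all features in either direction and 3.2% higher on slide 2.

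**Figure D4:**
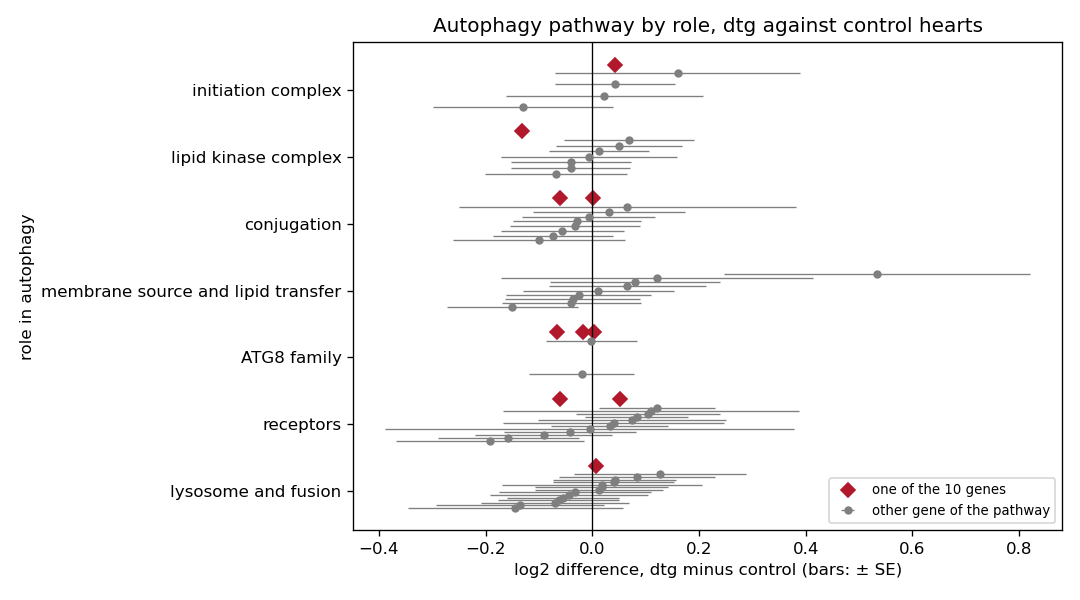
Log2 difference, dtg minus control, of 56 further autophagy genes by role, as grey points with their standard errors, and of the 10 genes of the set as red diamonds. All but Wdr45b, at 0.53, lie between -0.19 and 0.16.

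Sqstm1, Ulk1 and Map1lc3b had the highest SD over the hearts, and for each the genes with the most similar pattern were found among 14293 others, by the root mean square difference of log2 values centred on each gene's mean over the 8 hearts. For Sqstm1 these were Cdip1, Fuca2 and Thnsl1, at 0.084, 0.088 and 0.094, against an SD of 0.31 for Sqstm1 itself. All 3 had their lowest value in dtg 4, at -1.81, 0.70 and -2.28. For Ulk1 they were Cdk13, Snx11 and Bax, at 0.051, 0.057 and 0.060, each higher in the 4 hearts of slide 2 than in the 4 of slide 1. For Map1lc3b they were Rsu1, Tbl1x and Zfp148, at 0.032, 0.038 and 0.042, each lowest in control 4 and highest in dtg 2. These likenesses are descriptions over 8 hearts that share slides and scaling. Because the genes were picked for their likeness, the shared extremes and the shared slide split follow from that choice.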

How the data were processed

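Each of the 8 hearts was hybridised to a 1-colour (Cy3) Agilent array with mm9 annotation. Per the file headers, the deposited spot intensities come from Agilent Feature Extraction, version 10.7.3.1: the processed signal is background-subtracted within an array and not normalized between arrays. A second table of log2 values was deposited by the authors; its scale and centring are not stated, but every column correlated at above 0.9999 with quantile-normalized log2 processed signal centred on each probe's median, with column medians from -0.032 to 0.032. Its direction is therefore that of the arrays.

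From the intensities, log2 processed signal minus the 75th percentile of the array was computed, spots of a probe were averaged, and probes well above background on at least 4 arrays were kept (26118 of 39429). A gene with several kept probes was represented by its brightest, and 21434 features entered the test of limma (version 3.58.1, under R 4.3.3; lmFit, eBayes, Benjamini-Hochberg adjustment over all features, threshold 0.05), with the 4 dtg against the 4 control hearts. The fit was tested on simulated data. A further fit with slide and group as terms gave the slide difference. Gene names were taken from RefSeq (GRCm38.p6) through the accession of the probe. All 14 probes of the 10 genes were well above background on all 8 arrays, with no saturated or outlying spot.

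The 10 genes, the pathway list and the marker lists were chosen with earlier results of these data known. Named were all 10 genes, the 2 further genes with the smallest unadjusted p in each role, the 3 genes most like each of the 3 members with the highest SD over hearts, and Igf1r. Atg13 and Ambra1, and the markers Cd3e, Actc1, Myl3, Lep and Acta2, lie outside that rule: they were picked once their values had been seen. Alternatives changed the background correction, scaling, dim-probe filter, probe choice, source of values, slide, replicate block, variance model, threshold and hearts used. The mean signal was not used here, so normexp ran on the median signal.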

Additional observations from a re-analysis of the deposited data

Results flagged for a closer look

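Dixon's test at the 95% level was applied to 58 groups of 4 hearts, for the 14 probes of the 10 genes, 14 further autophagy genes and Igf1r, and 4 groups held a heart far from the other 3; chance alone gives about 1 in 20 groups. Sqstm1 had a log2 signal of 1.87 in dtg 4, against 2.69 to 2.86 in the other dtg hearts. The dimmer Atg7 probe read -3.23 in dtg 4, with -2.34 to -2.28 in the other dtg hearts, while the brighter Atg7 probe did not set dtg 4 apart. Atg4b was at -2.19 in dtg 4, with -1.67 to -1.59 in the other dtg hearts. Gabarapl2 was at 3.54 in dtg 3, with 3.74 to 3.77 in the other dtg hearts.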

How the results depend on the processing

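Over 24 alternatives none of the 10 genes was called between dtg and control hearts. Of 240 recomputed differences 191 kept their sign and 49 reversed it, and the cause of the reversals was not tested. Some signs could not reverse: changing only the dim-probe filter, the slide or replicate block, a variance trend or the threshold left the differences unchanged. The 191 therefore overstate how stable the signs were. Becn1 alone was lower in dtg hearts under all 24, between -0.24 and -0.019. With normexp, Map1lc3a was 0.19, Gabarapl1 0.22, Atg5 0.043 and Sqstm1 0.17, and of those that kept their sign Bnip3 was 0.33, Ulk1 0.27, Lamp2 0.24, Map1lc3b 0.23 and Atg7 0.083; without spots darker than their local background, an alternative chosen after seeing the data, Map1lc3b was -0.0074. Quantile normalization gave -0.0095 for Map1lc3b and -0.0074 for Atg7, and the authors' deposited values -0.011 and -0.0076. Median scaling gave -0.082 for Map1lc3b, -0.085 for Atg7, -0.042 for Ulk1, -0.033 for Bnip3 and -0.078 for Lamp2. The mean of all probes put Atg7 at -0.16. Within slide 1, Map1lc3b was -0.13, Gabarapl1 0.094 and Atg7 -0.070; within slide 2, Map1lc3a was 0.077, Bnip3 -0.0028, Sqstm1 0.11 and Lamp2 -0.086. Array weights gave -0.021 for Map1lc3b, 0.080 for Gabarapl1, -0.013 for Atg7 and 0.051 for Sqstm1. A fit blocked on slide that left out dtg 3, dtg 4 and control 4 put Gabarapl1 at 0.070, Atg7 -0.13 and Sqstm1 0.19. Leaving out 1 heart at a time gave ranges of -0.0998 to 0.059 for Map1lc3b, -0.091 to 0.082 for Gabarapl1, -0.056 to 0.085 for Atg7, -0.045 to 0.12 for Ulk1, -0.0094 to 0.16 for Bnip3, -0.16 to 0.17 for Sqstm1 and -0.049 to 0.074 for Lamp2. Between slides, the same gave -0.10 to 0.11 for Map1lc3b, -0.076 to 0.021 for Becn1 and -0.023 to 0.18 for Bnip3.

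Over all features limma called 0 between dtg and control hearts, with 163 at an unadjusted p under 0.05, a count that ran from 13 with normexp to 761 with array weights. Between slides it called 2210, against 1305 with quantile normalization and 1096 to 2566 without 1 heart, the fewest without control 1 and next without control 2 (1111) and dtg 2 (1461). Deviations of same-numbered hearts correlated at r = 0.54, -0.54, 0.15 and 0.16 for replicates 1 to 4 (across genes); with replicate 2 below 0, the numbers were not taken to pair the samples. In a fit with a replicate block limma called 0 features, 276 had an unadjusted p under 0.05, and the 10 differences were unchanged. With 4 arrays per group, differences within the intervals given could not be resolved.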
